A study of Rattus norvegicus with 93 samples.

Results

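Day 21 of bone repair was set against days 10 and 14, pooled, in 4 mm holes of the rat calvaria, the vault of the skull. The 15 arrays compared were those whose titles name a 4 mm defect at day 10, 14 or 21, out of 93 arrays of a time course of skull healing. The day 21 group held 6 arrays. The earlier group held 9, of which 4 were from day 10 and 5 from day 14, and each array counted equally in the pool. All came from male rats aged 12 weeks, each array from 1 defect, and rats of the day 21 group had healed for 21 days after the same operation as the others. A trephine cut the hole, the disc of bone was taken away and the dura mater stayed over the brain, then the skin was sutured and no other treatment followed. The series calls a 4 mm hole smaller than critical size, the size beyond which a hole does not close by itself. The sample was a plug of bone and healing tissue taken with the same trephine, so it mixes all cells of the site. The rat strain is not given in the sources used here. No intact skull bone entered the comparison, and every value sets stages of repair against each other. Nothing in the labels says whether the rats were operated on in separate sessions. Unless stated otherwise, p-values rest on the spread between arrays within the 14 groups of day and size of all 93 arrays. They measure no other source of error.

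A skull defect first fills with clot and inflammatory cells, then with a provisional matrix laid down by dividing fibroblasts and bone progenitors, and osteoblasts then build woven bone on collagen type I without a large cartilage stage. Interferons and the chemokines they induce mark activated macrophages and draw in lymphocytes, and these signals normally fade as inflammation resolves. Osteoblasts secrete collagen, osteocalcin and bone sialoprotein, osteocytes are osteoblasts walled into the mineral, and osteoclasts resorb and remodel it.

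The values are log2 ratios of an array's signal to the median of that probe over the 93 arrays, so 0 means the median level for most probes, and levels of different genes cannot be set against each other. The deposited ratios stop at 0.01, which is -6.64 on the log2 scale, and values at this floor have no order. Between 14.1% and 22.6% of the probes stood at the floor on the day 21 arrays, against 13.8% to 23.1% on the earlier ones. Markers of bone were present: Col1a1, Alpl and Ctsk lay above the highest of the 8 arrays of day 1 on all 15 arrays, Bglap and Ibsp on 14 and Dmp1 on 12. The osteoblast transcription factors did so less often, Runx2 on 6 arrays and Sp7 on 1. Brain genes set some arrays apart. The mean log2 value of 16 brain genes, called the brain score, was 4.21, 4.54 and 3.98 in day 21 rats 10, 11 and 15, against -2.03 to -0.17 in the other day 21 rats. It was 3.12 in day 14 rat 17 and at most 1.55 in the other earlier rats. On the 4 arrays with a score above 2, at most 1 of the 16 brain genes stood at the floor, against 1 to 6 on the others. Brain genes were thus high on some day 21 arrays but not on all. Their part in the results was not tested beyond refitting. Either all arrays of the series with a score above 2 were left out, 8 of the 93, or brain and muscle scores entered as covariates. Day 10 rat 10 also had a low overall level, -1.03 against 0.18 to 0.42 in the other rats of day 10.

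**Figure D1:**
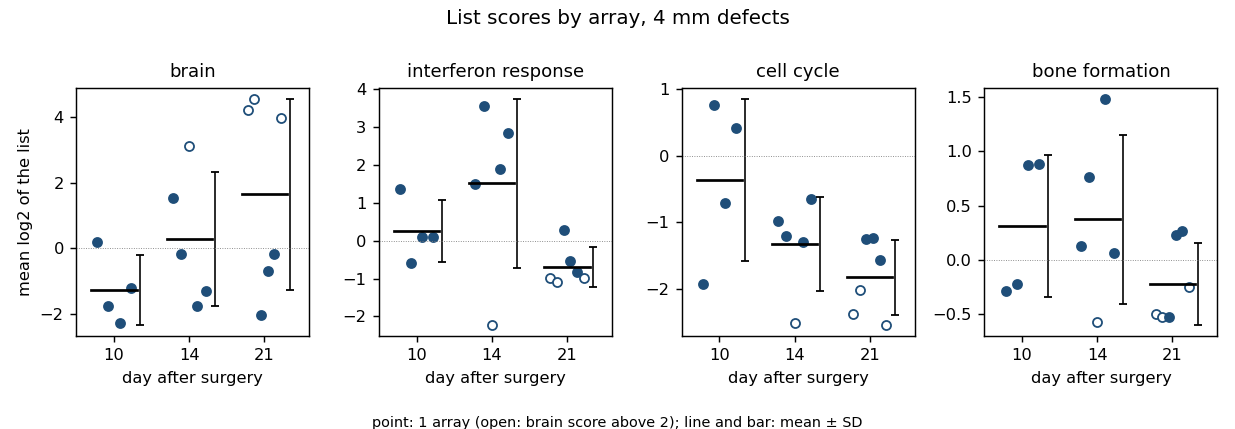
Mean log2 value of 4 gene lists on each 4 mm array by day after surgery (10, 14 and 21), with the mean and SD of each day; open points are the 4 arrays with a brain score above 2. The brain score is above 2 on 3 of the 6 arrays of day 21 and 1 of the 9 earlier ones, and the interferon score is highest at day 14 except in rat 17.

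Few genes passed the test. Of 15975 genes, 135 differed between day 21 and days 10 and 14 (0.845% of those tested, limma's moderated test on all 93 arrays, adjusted p under 0.05), with 56 higher at day 21 (0.351%) and 79 lower (0.495%). At an unadjusted p under 0.05 there were 2129 genes (13.3%), 1195 higher (7.48%) and 934 lower (5.85%). All 135 had the same sign against day 10 alone and day 14 alone. All 6 day 21 arrays lay beyond the mean of the earlier arrays for 110 of them. Only 45 of the 135 were measured above the floor on all 15 arrays, 13 higher and 32 lower, out of 6969 such genes. The groups did not overlap at all for 7 of the 135, where 10 genes of all tested (0.0626%) were without overlap and higher and 8 (0.0501%) without overlap and lower. These 7 were Bmp4, Ptprr and Slc4a11, which were higher, and Bst2, Ccl12, RGD1563091 and Stau1, which were lower. Only Bst2, RGD1563091 and Stau1 of them were above the floor on all 15 arrays. Quantile normalization left 67 genes, of which 10 were higher and 57 lower.

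The count of genes passing was 309 without day 14 rat 17 and 89 without day 21 rat 15. The error estimate was pooled over all 14 groups of the series. On the arrays of days 1, 3 and 5, 10.0% to 10.9% of the probes stood at the floor, fewer than on the 15 compared. The median standard error over genes was 0.815 in this fit and 1.04 with the 15 arrays alone. For single genes it went either way, as for Bmp4 (0.69 and 0.90) and Ptprr (1.42 and 0.44). When the error was taken from the 15 arrays alone, 3 genes passed (0.0188%), with 1030 at an unadjusted p under 0.05 (6.45%). Ccl12 was lower (0.00626%) and Ptprr and Rad9a were higher at day 21 (0.0125%). Ptprr, a receptor-type tyrosine phosphatase, ranged from -1.08 to 2.15 with a median of 0.84 at day 21 and was listed at the floor on all 9 earlier arrays, so no fold can be given. Rad9a, a DNA damage checkpoint gene, ranged from -0.49 to 0.94 at day 21 and from -6.64 to -0.16 earlier, its low values being those of day 10, where it was at the floor on 3 arrays and at -5.78 on the other one. The arrays of high brain score were 8 of the 93, of which 4 were among the 15. Without these 8, in the fit of all groups, 257 genes passed (1.61%), 51 higher (0.319%) and 206 lower (1.29%), with 2108 at an unadjusted p under 0.05 (13.2%). This refit thus also changed the error estimate. Of the 135, 64 passed both ways, 19 higher and 45 lower, and none turned direction. A fit of the 4 mm arrays alone, with the 11 that remained of the 15, called 11 genes (0.0689%), 5 higher (0.0313%) and 6 lower (0.0376%), with 1162 at an unadjusted p under 0.05 (7.27%).

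Several genes that fell are chemokines or are known to be induced by interferon. Cxcl10, Cxcl9, Isg15, Bst2 and Oas1i, which were high at day 14 in particular, were 4.67-fold to 15.8-fold lower at day 21 than at days 10 and 14. Ccl12, a chemokine that attracts monocytes in the mouse, was chosen for naming after its values were seen and had the smallest adjusted p of all genes. Of the 15 genes of the interferon response list measured, to which Bst2, Cxcl10, Oas1i and Ccl12 do not belong, 2 fell (Isg15 and Cxcl9), 0 rose and 13 did not pass. The 2 were 13.3% of the list, against 0.495% lower over all genes. At an unadjusted p under 0.05, 9 of the 15 were lower and 0 higher, against 5.85% lower and 7.48% higher over all genes. The list's median change was -1.82, against 0.07 for all genes tested. It was -1.91 without the arrays of high brain score, where Cxcl9 alone of the list fell, and 0 passed when the error was taken from the 15 arrays alone.

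The regulatory sequence of these genes can be read beside their levels. Genes induced by interferon often carry an interferon-stimulated response element, to which factors of the STAT and IRF families bind, and its core was searched as GAAANNGAAA or, on the other strand, TTTCNNTTTC, where N is any base and matches may overlap. The window ran from 250 bases before to 50 bases after the gene start in RefSeq promoters of the rat build GRCr8, 300 bases in all. The core stood in 6 of the 11 interferon response genes with a promoter entry. Among genes with an entry it stood in 7 of 60 lower at day 21 and in 0 of 40 higher ones, while 3.28% of the 12961 measured genes with an entry and 3.92% of all 33469 promoters held it. The 7 were Bst2, Cxcl10, Gbp4, Lgals3bp, Oas1i, Sp110 and Wdr25, and a match is a run of letters, not evidence of binding. The windows of Cxcl9 and Ccl12 held no match, and Isg15 is named only. The promoters of 3 genes are shown because these fell and carry the core, which is in capitals. Bst2 lies at chr16:18254918-18255217 on the minus strand, with overlapping matches that start 131 and 125 bases before the gene start. Oas1i lies at chr12:41284976-41285275 on the plus strand, with overlapping matches 36 and 30 bases before it. Cxcl10 lies at chr14:15988816-15989115 on the plus strand, with a match 243 bases before it.
Bst2: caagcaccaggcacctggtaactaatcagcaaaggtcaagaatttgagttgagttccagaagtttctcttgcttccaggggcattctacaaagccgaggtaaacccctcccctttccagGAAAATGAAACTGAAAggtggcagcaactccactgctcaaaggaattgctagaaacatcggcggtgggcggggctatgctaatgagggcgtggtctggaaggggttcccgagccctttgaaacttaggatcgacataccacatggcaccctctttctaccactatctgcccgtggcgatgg
Oas1i: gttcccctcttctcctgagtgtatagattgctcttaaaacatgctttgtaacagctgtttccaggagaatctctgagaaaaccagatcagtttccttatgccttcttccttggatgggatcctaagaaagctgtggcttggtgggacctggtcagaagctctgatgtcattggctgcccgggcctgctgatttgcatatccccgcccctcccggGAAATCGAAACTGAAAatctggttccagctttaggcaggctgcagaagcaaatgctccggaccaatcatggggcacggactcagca
Cxcl10: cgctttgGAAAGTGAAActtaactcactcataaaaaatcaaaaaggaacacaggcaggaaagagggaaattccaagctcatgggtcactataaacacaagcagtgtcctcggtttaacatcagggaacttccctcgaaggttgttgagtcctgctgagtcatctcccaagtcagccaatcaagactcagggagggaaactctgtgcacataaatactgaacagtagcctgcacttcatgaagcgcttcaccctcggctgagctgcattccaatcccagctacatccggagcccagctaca

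Bst2, or tetherin, holds budding enveloped viruses at the cell surface. It ranged from -2.53 to -1.44 with a median of -1.96 at day 21, against -1.14 to 2.95 with a median of 1.46 at days 10 and 14. Every day 21 array lay below every earlier array, and the 3 highest were all of day 14. Bst2 fell by 2.79 ± 0.53 on the log2 scale (SE, n = 6 and 9, limma adjusted p = 0.00165) and by 2.79 without the arrays of high brain score (limma adjusted p = 0.0158). Cxcl10, a chemokine that recruits activated T cells, ranged from -2.35 to 1.02 with a median of -0.87 at day 21, against 0.39 to 7.26 with a median of 3.21 earlier. The groups overlapped slightly, through day 21 rats 14 and 15 and the lower day 10 rats, and the highest value was that of day 14 rat 16. It fell by 3.98 ± 0.93 (SE, n = 6 and 9, limma adjusted p = 0.0141), and by 3.77 with an adjusted p of 0.0983 without the arrays of high brain score. Cxcl9, a sister chemokine, ranged from -4.28 to 0.11 with a median of -1.73 at day 21 and from -1.54 to 2.51 with a median of 1.01 earlier. Apart from rat 17, which stood at -1.54, all day 14 arrays were at 1.60 or above. Cxcl9 fell by 2.73 ± 0.64 (SE, n = 6 and 9, limma adjusted p = 0.0163), a call that was lost without day 21 rat 13, with a change of -2.24 and an adjusted p of 0.0846.

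Isg15, a ubiquitin-like protein joined to other proteins after interferon, ranged from -2.22 to 0.00 with a median of -0.61 at day 21, against -0.77 to 4.02 with a median of 2.51 earlier. Day 14 was again the high group, apart from rat 17. Isg15 fell by 2.74 ± 0.62 (SE, n = 6 and 9, limma adjusted p = 0.0107), and had a change of -2.46 with an adjusted p of 0.084 without the arrays of high brain score. Oas1i, of the oligoadenylate synthetase family that switches on RNA decay, ranged from -1.74 to -0.55 at day 21 and from -2.23 to 3.42 earlier, where day 14 rat 17 alone was negative. It fell by 2.22 ± 0.56 (SE, n = 6 and 9, limma adjusted p = 0.0307), but the call was lost on leaving out any 1 of 6 arrays (day 14 rats 15, 16 and 20 and day 21 rats 12, 13 and 14), with adjusted p-values of 0.0501 to 0.0695. Ccl12 ranged from -6.64 to -3.76 with a median of -4.49 at day 21, where 2 arrays stood at the floor, against -2.54 to 2.98 with a median of 0.38 earlier. No array of one stage reached those of the other, and the fitted change was -5.43 ± 0.59 (SE, n = 6 and 9, limma adjusted p = 4.13e-10). Among list members that did not pass, Oas1a had a change of -1.91 (limma adjusted p = 0.071), Oasl -2.05 and Usp18 -2.92, while Irf1 had 0.69 and Rsad2 0.01. Day 14 rat 17, which has a high brain score, had an interferon score of -2.21, the lowest of the 15 arrays.

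**Figure D2:**
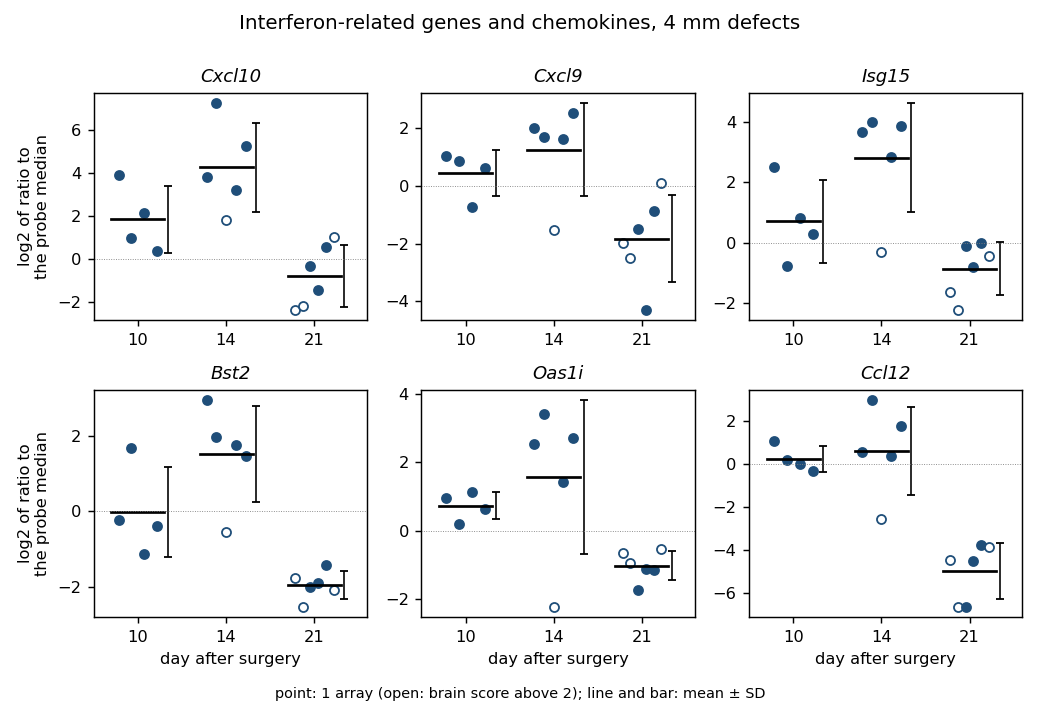
Log2 ratio to the probe median of 6 genes on each 4 mm array by day after surgery (10, 14 and 21), with the mean and SD of each day; open points are the 4 arrays with a brain score above 2. All day 21 values of Bst2 lie at or below -1.44 and all of Ccl12 at or below -3.76, under every earlier array.

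Genes of myeloid cells and of inflammatory signalling were among those that fell. C3ar1, the receptor for the complement fragment C3a, Slamf9 and Ms4a11, surface proteins of leukocytes, and Il1rl1, the receptor for interleukin-33, were 3.52-fold to 5.26-fold lower at day 21. Il6, a cytokine of acute inflammation, fell too, with no fold given because 1 day 21 array stood at the floor. Of 25 inflammatory cytokine genes 2 fell (Cxcl10 and Il6, 8%, against 0.495% of all genes) and 0 rose, with a median change of -0.60. At an unadjusted p under 0.05, 7 of the 25 were lower and 1 higher. Without the arrays of high brain score only Nos2, the inducible nitric oxide synthase, passed in that list (-3.78, limma adjusted p = 0.0478), and the median was -0.20. Of the 20 genes of the macrophage list 0 passed, and passing genes off the list were not counted. At an unadjusted p under 0.05, 7 of the 20 were lower and 1 higher, against 5.85% lower and 7.48% higher over all genes. In that list 19 had a negative change, and the median was -0.71. Of 13 complement genes only C3ar1 passed. C3ar1 ranged from -3.90 to -0.67 with a median of -2.0 at day 21, against -2.34 to 1.09 with a median of -0.32 earlier. The groups overlapped, yet all 6 day 21 arrays were below the earlier mean. C3ar1 fell by 1.81 ± 0.36 (SE, n = 6 and 9, limma adjusted p = 0.00253), and by 1.84 without the arrays of high brain score (limma adjusted p = 0.00416). Slamf9 ranged from -2.09 to -0.33 at day 21 and from -2.25 to 1.81 earlier, the lowest earlier value being that of day 14 rat 17, and it fell by 2.14 ± 0.46 (limma adjusted p = 0.00631).

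Il6 ranged from -6.64, the floor, on day 21 rat 10 to -0.88 with a median of -2.63, against -1.69 to 0.88 with a median of -0.41 earlier. Of the day 21 arrays only that of rat 12 lay within the range of the earlier ones. Il6 fell by 2.84 ± 0.59 (SE, n = 6 and 9, limma adjusted p = 0.00402), and its change was -2.16 with an adjusted p of 0.0526 without day 21 rat 10. It was -2.31 with an adjusted p of 0.0647 without the arrays of high brain score, and -1.41 with an adjusted p of 0.0737 once values under 0.25 were raised to 0.25. Il1rl1 fell by 2.39 ± 0.53 (limma adjusted p = 0.00866), a call lost without day 21 rat 15, with a change of -1.81 and an adjusted p of 0.0989. The call was also lost without the arrays of high brain score (-1.74, adjusted p = 0.177) and with the mean of its probes (-0.74, adjusted p = 0.651). Ms4a11 fell by 1.86 ± 0.50 (limma adjusted p = 0.0473), and 13 of the 15 single omissions ended its call. Cebpe, a transcription factor of maturing granulocytes, was the only 1 of 17 neutrophil genes to pass, against 0.495% lower over all genes. Cebpe fell by 2.19 ± 0.59 (limma adjusted p = 0.0473), and 11 omissions ended that call. The monocyte chemokines Ccl2 and Ccl7 had changes of -1.26 and -1.44 and did not pass (limma adjusted p = 0.18 and 0.17), nor did Cd68, a lysosomal protein of macrophages, with -0.89 ± 0.37 (limma adjusted p = 0.242). In a bulk sample, fewer cells of a type and less RNA per cell cannot be told apart.

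Of the 24 genes of the cell cycle list Mki67 and Ttk fell (8.33%, against 0.495% of all genes), 0 rose and 22 did not pass. Passing genes off the list were not counted. In all, 21 had a negative change, the median was -1.04, and 10 of 24 were lower at an unadjusted p under 0.05 and 0 higher, against 5.85% lower and 7.48% higher over all genes. Without the arrays of high brain score the median was -0.65 and Mki67, Plk1 and Tpx2 fell. Mki67, the Ki-67 antigen of dividing cells, ranged from -4.84 to -0.60 with a median of -1.65 at day 21, against -2.63 to 1.44 with a median of -0.27 earlier. Day 21 rat 15 was far below the others, and day 14 rat 17 was the lowest of the earlier arrays. Mki67 fell by 1.75 ± 0.39 (SE, n = 6 and 9, limma adjusted p = 0.00925), and the change was -1.18 with an adjusted p of 0.128 without day 21 rat 15. Ttk, a kinase of the spindle checkpoint, fell by 2.18 ± 0.53 (limma adjusted p = 0.0244), by 3.69 against day 10 (limma adjusted p = 0.000326) and by 0.96 against day 14, where it did not pass (limma adjusted p = 0.59). Its call ended on leaving out any 1 of 5 arrays, with adjusted p-values of 0.0612 to 0.145. Melk, a kinase high in dividing cells, ranged from -5.83 to -1.20 at day 21 and from -2.88 to 1.57 earlier, and fell by 2.61 ± 0.57 (limma adjusted p = 0.00741). Without day 21 rat 13 it had -2.12 with an adjusted p of 0.0552, and with values under 0.25 raised it had -1.11 with an adjusted p of 0.137. Arhgef39, a nucleotide exchange factor, fell by 1.83 ± 0.45 (limma adjusted p = 0.0256), and 3 omissions ended that call. Top2a and Ccnb1, a topoisomerase and a cyclin of dividing cells, had changes of -0.78 and -1.29 and did not pass.

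Few matrix genes of the provisional wound tissue and of cartilage passed. Of 25 fibroblast and wound matrix genes Tnc, Vcan and Loxl2 fell (12%, against 0.495% of all genes) and 0 rose, with a median change of -0.53. At an unadjusted p under 0.05, 6 of the 25 were lower and 2 higher, against 5.85% lower and 7.48% higher over all genes. Tnc, tenascin C of healing wounds, ranged from the floor on 2 arrays, rats 12 and 14, to -1.69 at day 21, against -3.07 to 1.70 earlier, where day 10 rat 11 was highest. It fell by 2.47 ± 0.55 (SE, n = 6 and 9, limma adjusted p = 0.00866), and the call ended without rat 12 or without rat 14 of day 21 (-1.91 in both cases, adjusted p = 0.0692 and 0.0718). With values under 0.25 raised it had -0.72 with an adjusted p of 0.418, and without the arrays of high brain score -3.78 (limma adjusted p = 0.000274). Vcan, versican, a large proteoglycan, fell by 1.72 ± 0.44 (limma adjusted p = 0.0329) and Loxl2, a collagen cross-linking enzyme, by 1.55 ± 0.41 (limma adjusted p = 0.043), and 6 and 11 single omissions ended these calls. Acan, aggrecan, the main proteoglycan of cartilage, was the only 1 of 19 cartilage genes to pass. It stood at the floor on day 21 rats 12, 13 and 14 and at -2.85 to -1.04 on the other day 21 arrays, against -2.35 to 0.60 with a median of -0.08 earlier. The fitted fall was 3.84 ± 0.73 (SE, n = 6 and 9, limma adjusted p = 0.00165), and it was -1.33 with an adjusted p of 0.135 once values under 0.25 were raised to 0.25. Of the 38 genes named by rule that passed, 8 had a change smaller by over 1.5 times with the raised values, and 7 lost the call. Col2a1, the collagen of cartilage, had a change of 1.62 ± 1.05 and was at the floor on 1 day 21 array and 3 earlier ones. Col3a1 and Postn, a fibrous collagen and periostin of the wound bed, had changes of -0.28 and -0.61 and did not pass. Cilp, an intermediate layer protein of cartilage and other connective tissue, rose: it ranged from 0.93 to 2.74 with a median of 2.20 at day 21, against -2.34 to 1.40 with a median of 0.06 earlier. Its rise of 2.31 ± 0.47 (SE, n = 6 and 9, limma adjusted p = 0.00328) held against each day alone and without the arrays of high brain score (limma adjusted p = 0.0227).

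**Figure D3:**
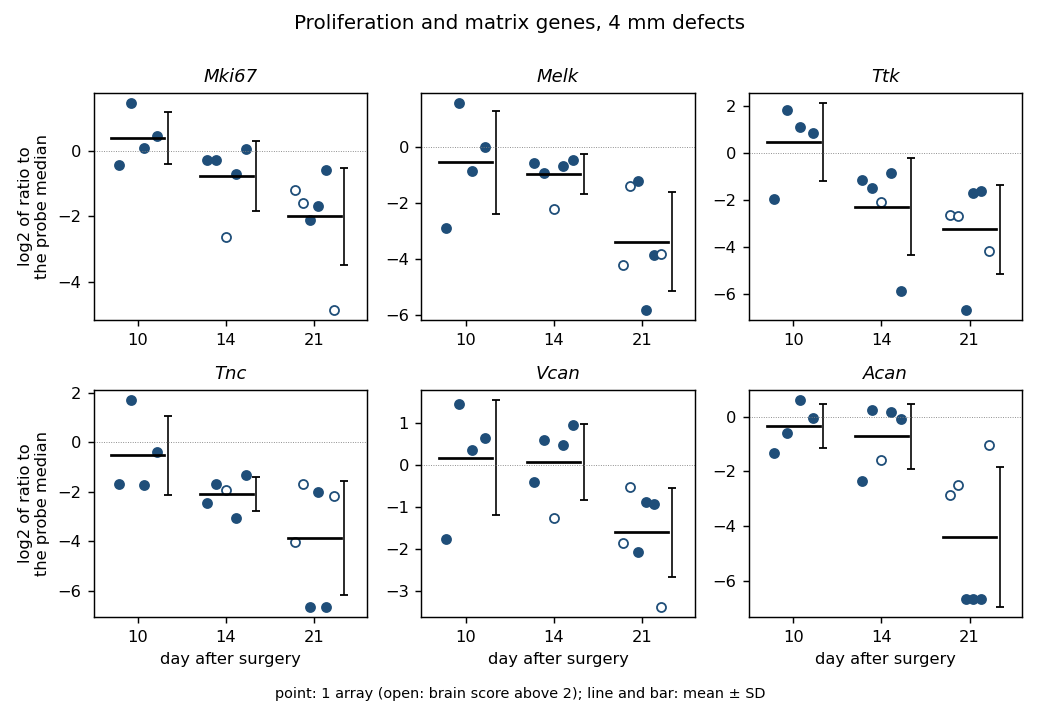
Log2 ratio to the probe median of 6 genes on each 4 mm array by day after surgery (10, 14 and 21), with the mean and SD of each day; open points are the 4 arrays with a brain score above 2. Values of -6.64 are at the floor, where Acan stands on 3 and Tnc on 2 of the 6 arrays of day 21.

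Bone formation, osteocyte and osteoclast genes gave 0 calls among 26, 8 and 14 measured. At an unadjusted p under 0.05, 1, 0 and 3 were lower and 0 higher, against 5.85% lower and 7.48% higher over all genes. The median change was -0.41 for bone formation, -0.63 for osteocytes and -0.14 for osteoclasts. For osteoclasts it was 0.71 against day 14 and -1.26 against day 10, and Atp6v0d2 and Mmp9, an osteoclast proton pump subunit and a gelatinase, were lower at day 14 than at day 10 (limma adjusted p = 0.0323 and 0.00282). Without the arrays of high brain score the medians were -0.01 for bone formation, -1.16 for osteocytes and -0.29 for osteoclasts, and only Ptprz1 of the osteocyte list passed (-3.52, limma adjusted p = 0.0478). Bglap, osteocalcin, a protein of mature osteoblasts, ranged from 1.20 to 6.35 with a median of 4.77 at day 21, against -0.84 to 6.73 with a median of 5.00 earlier. It was high on most arrays of all 3 days, and day 14 rat 15 and day 21 rat 10 were the lowest. The change of 0.05 ± 0.96 (SE, n = 6 and 9, limma adjusted p = 0.988) was smaller than its standard error. Ibsp, bone sialoprotein, had a change of -0.45 ± 1.09 and ran as low as -2.92 in day 21 rat 10. Col1a1, the main collagen of bone, ranged from -0.96 to 0.68 at day 21, against -0.67 to 1.16 earlier, with a change of -0.78 ± 0.36 (limma adjusted p = 0.306). Dmp1, a matrix protein of young osteocytes, had -1.04 ± 1.02, and Sost, the osteocyte inhibitor of Wnt signalling, had 2.46 ± 1.72 with 2 day 21 arrays and 6 earlier ones at the floor. The osteoclast enzymes Ctsk and Acp5 had -0.86 ± 0.40 and -0.85 ± 0.39 (limma adjusted p = 0.32 for both). Tnfsf11, the osteoclast-inducing ligand RANKL, had 0.85 ± 1.46, and Tnfrsf11b, its decoy receptor, had -0.25 ± 0.50. Mmp13, a collagenase of bone, had -0.37 ± 0.60.

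Bmp4, a growth factor that drives osteoblast formation, was the only 1 of 31 BMP and TGF-beta genes to pass, against 0.351% higher over all genes. It was 0.80 to 1.77 on all day 21 arrays with a median of 1.39, against -6.64 to 0.68 with a median of -0.95 earlier. Every day 21 array was above every earlier one, the low values being day 10 rat 12, at the floor, and day 14 rat 18 at -4.16. Bmp4 rose by 2.95 ± 0.69 (SE, n = 6 and 9, limma adjusted p = 0.0142), by 4.02 against day 10 (limma adjusted p = 0.00333) and by 2.10 against day 14, which did not pass (limma adjusted p = 0.207). Without day 10 rat 12 the change was 2.33 with an adjusted p of 0.0644, and without the arrays of high brain score it was 3.27 (limma adjusted p = 0.046). The list's median was 0.19, Bmp3 had 1.23 ± 0.99 and Bmp7 1.02 ± 0.60. Sfrp4, a secreted Wnt inhibitor, was above the floor on 5 of 6 day 21 arrays and 3 of 9 earlier ones, and did not pass (3.88 ± 2.09, limma adjusted p = 0.417). Of 27 Wnt genes 0 passed, against 0.845% of all genes, and 1 was higher and 1 lower at an unadjusted p under 0.05.

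**Figure D4:**
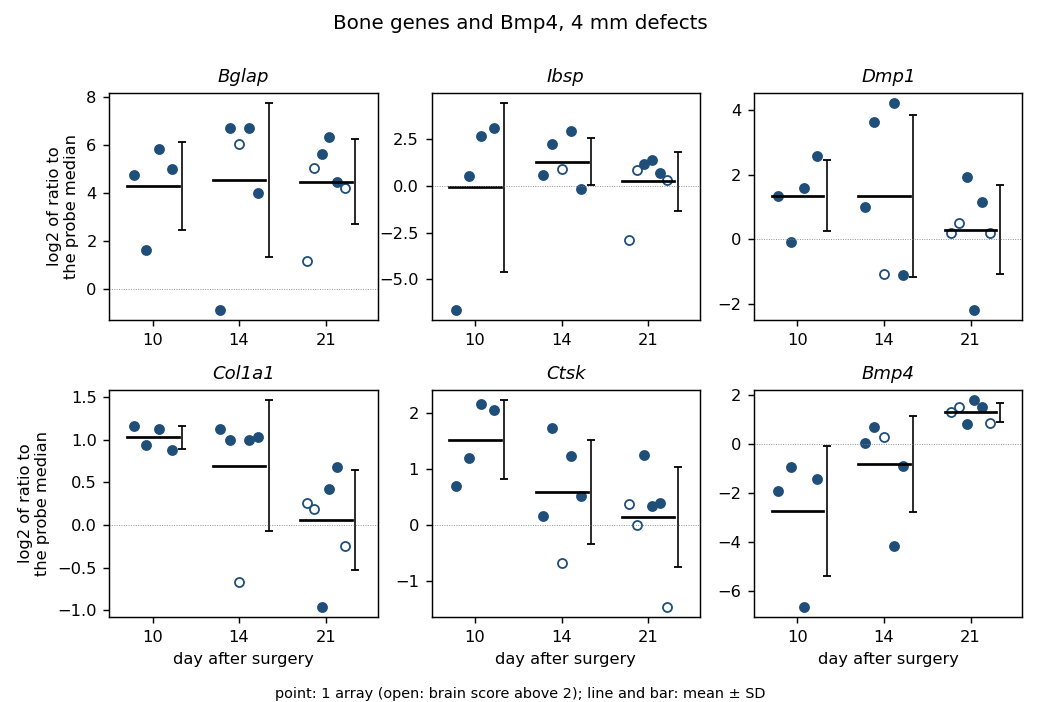
Log2 ratio to the probe median of 5 bone genes and Bmp4 on each 4 mm array by day after surgery (10, 14 and 21), with the mean and SD of each day; open points are the 4 arrays with a brain score above 2. Bmp4 lies between 0.80 and 1.77 on all day 21 arrays, above every earlier array, while the days overlap for the other 5 genes.

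The other rises above the floor on all 15 arrays were of genes with scattered roles. Tsc22d3, a leucine zipper protein induced by glucocorticoids, ranged from -0.12 to 1.97 with a median of 1.39 at day 21 and from -6.53 to 1.25 with a median of -0.87 earlier. All 6 day 21 arrays were above the earlier mean, and the rise was 2.80 ± 0.61 (SE, n = 6 and 9, limma adjusted p = 0.00711) and 2.89 without the arrays of high brain score (limma adjusted p = 0.0154). It was 1.80 with an adjusted p of 0.132 under quantile normalization and 1.68 with the mean of its probes. Tst, a mitochondrial sulfur transferase, lay within 1.56 to 2.0 on the day 21 arrays, against -3.21 to 1.60 earlier, and rose by 1.86 ± 0.41 (limma adjusted p = 0.00925). That rise was 3.33 against day 10 and 0.68 against day 14, and without day 10 rat 12 it was 1.47 with an adjusted p of 0.0633. Kctd2 rose by 1.77 (limma adjusted p = 0.00383) and Ubl7 by 1.17 (limma adjusted p = 0.0137), which was 0.94 with an adjusted p of 0.0555 without day 14 rat 18. Agpat3, an acyltransferase of phospholipid synthesis, rose by 1.99 ± 0.48 (limma adjusted p = 0.0224), and had 0.64 with an adjusted p of 0.66 without the arrays of high brain score. Leaving out day 10 rat 11 or day 21 rat 10, 11 or 15 alone also ended its call, with adjusted p-values of 0.0638 to 0.111. Amt, of glycine breakdown, rose by 2.45, Siat7F, a sialyltransferase, by 1.67, Kif3c, a kinesin, by 1.51, Dgkg, a diacylglycerol kinase, by 1.34, Crebl2 by 1.11 and Rnd2 by 1.06, with limma adjusted p-values of 0.023 to 0.0498. Each of these calls ended on leaving out any of several single arrays, and none of these 6 passed without the arrays of high brain score. Prg2, the major basic protein of eosinophil granules, rose by 1.39 ± 0.37 (limma adjusted p = 0.0443), with an adjusted p of 0.0612 without the arrays of high brain score, and 8 single omissions ended its call.

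Further falls above the floor did not belong to the lists. RGD1563091, whose role is not annotated here, ranged from -0.67 to 0.13 at day 21, against 0.23 to 3.45 earlier, without overlap, and fell by 2.04 ± 0.42 (SE, n = 6 and 9, limma adjusted p = 0.00383). Selm, a selenoprotein of the endoplasmic reticulum, fell by 1.94 ± 0.32 (limma adjusted p = 0.000173), by 3.08 against day 10 and by 1.02 against day 14, which did not pass (limma adjusted p = 0.181). Sct, secretin, fell by 2.16 and Wdr25 by 2.28 (limma adjusted p = 0.0301 and 0.0314), and 5 and 4 single omissions ended these calls. Wdr25 had -1.06 with the mean of its probes and -1.21 with values under 0.25 raised, and passed in neither case. Stau1, an RNA-binding protein chosen after its values were seen, fell by 1.39 ± 0.26 without overlap (limma adjusted p = 0.00123). Slc4a11, a membrane transporter chosen in the same way, rose by 3.53 ± 0.77 without overlap (limma adjusted p = 0.00741) and was at the floor on 1 earlier array. Of the 38 genes named by rule that passed, 12 passed whichever of the 15 arrays was left out: Acan, Bst2, C3ar1, Cilp, Cxcl10, Isg15, Kctd2, RGD1563091, Selm, Slamf9, Tmem88 and Tsc22d3. Of these, 9 also passed without the arrays of high brain score, the exceptions being Cxcl10, Isg15 and Kctd2.

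Lists of marrow, blood, vessel and fat cells gave 0 calls: 12 erythroid genes, 12 of B and plasma cells, 16 of T and natural killer cells, 8 of mast cells, 16 of endothelium and 14 of adipocytes. Over all genes 0.845% passed, so lists of this size may well hold no call. At an unadjusted p under 0.05, 0, 1, 1, 1, 1 and 1 were higher and 0, 1, 0, 0, 1 and 0 lower. Over all genes these shares were 7.48% and 5.85%. The medians of these lists were 0.32, 0.31, 0.76, 0.97, 0.33 and 0.33, against 0.07 for all genes. The erythroid genes Alas2, of haem synthesis, and Hbb, a globin, had changes of -0.19 ± 0.39 and 0.37 ± 0.43, Cd79b of the B cell receptor had 0.93 ± 0.59 and S100a9 of neutrophils had -0.31 ± 0.54. Mpo, myeloperoxidase, was at the floor on 4 of 6 day 21 arrays and 6 of 9 earlier ones. Cdh5, the cadherin of vessel walls, had -1.15 ± 0.42 (limma adjusted p = 0.181). It passed without the arrays of high brain score (-2.0, limma adjusted p = 0.0311), and without day 21 rat 13, where it was at the floor, the change was -0.21. Cxcl12, a stromal chemokine, had -0.20 ± 0.39, and Adipoq, adiponectin of fat cells, 0.42 ± 0.80. Of the brain genes, 15 of 16 had a positive change at day 21, with a median of 1.86 that was 0.30 without the arrays of high brain score, and 0 passed. At an unadjusted p under 0.05, 6 of the 16 were higher and 0 lower, against 7.48% higher and 5.85% lower over all genes. The 12 genes of the meninges had a median of 1.20, and 20 of skeletal muscle 0.07.

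**Figure D5:**
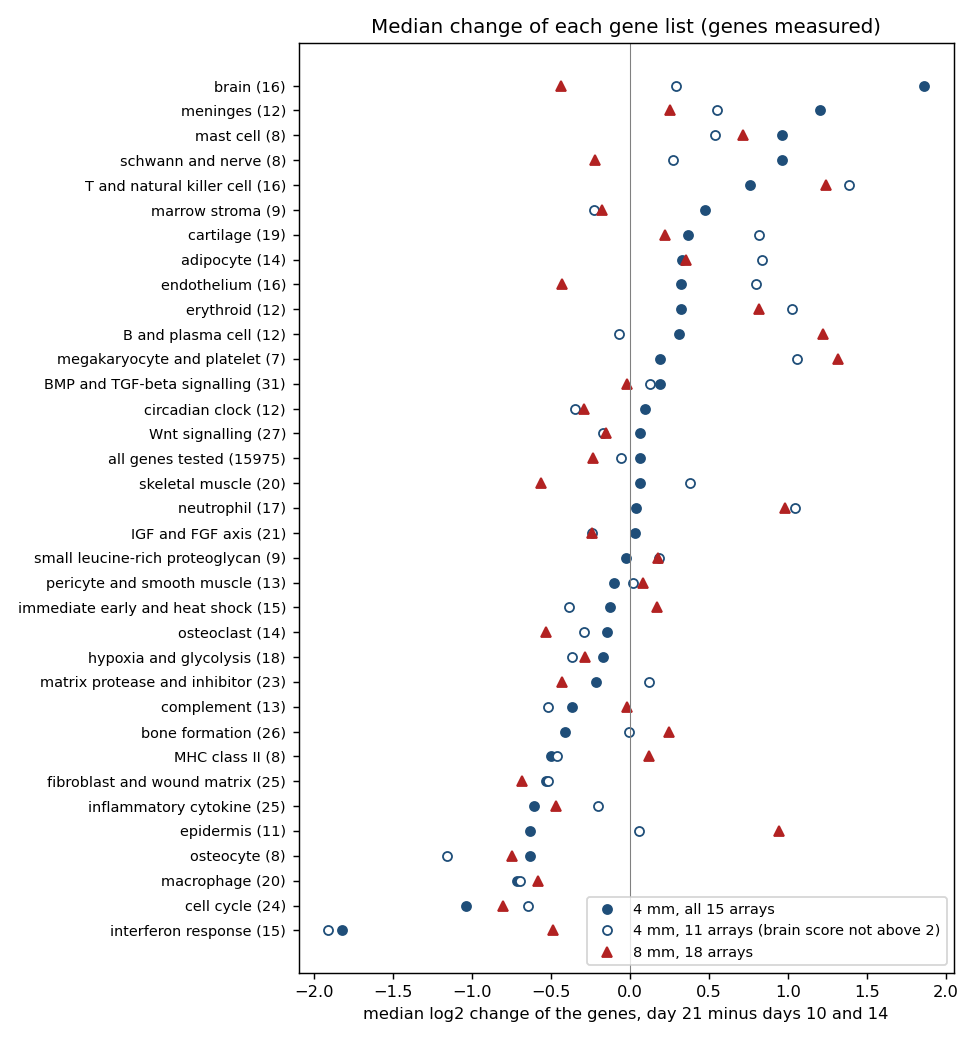
Median log2 change from days 10 and 14 to day 21 of the measured genes of 34 lists and of all genes tested (number of genes in brackets), in 4 mm defects with all 15 arrays (filled circles), in 4 mm defects with 11 arrays (open circles) and in 8 mm defects (triangles). The interferon response list is lowest in 4 mm defects (-1.82), and the brain list is highest with all arrays (1.86) and at 0.30 with 11.

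The pool hides a difference between its days. Against day 14 alone 202 genes passed (1.26%), 144 higher at day 21 (0.901%) and 58 lower (0.363%), and against day 10 alone 319 passed (2.0%), 181 higher (1.13%) and 138 lower (0.864%). Of the 135 genes of the pooled comparison, 71 passed against day 14, 71 against day 10 and 24 against both. Both comparisons share the day 21 arrays. Day 14 differed from day 10 by 359 genes (2.25%), 118 higher (0.739%) and 241 lower (1.51%). Of 15 interferon response genes 4 fell against day 14, with a median of -2.30, and 0 against day 10, with a median of -1.18. Between day 14 and day 10 themselves 0 of the 15 passed, with a median of 1.15 and adjusted p-values of 0.33 for Cxcl10 and 0.157 for Isg15, so no difference between these steps was shown. Cxcl10 fell by 5.06 against day 14 (limma adjusted p = 0.00382), and its change against day 10 was -2.64 (limma adjusted p = 0.227). Of 24 cell cycle genes 0 fell against day 14 (median -0.57) and 4 against day 10 (median -1.44), and of 25 wound matrix genes 0 and 4. Between day 14 and day 10 themselves 1 gene of each list passed, Ttk (-2.73, limma adjusted p = 0.0159) and Spon1 (-1.62, limma adjusted p = 0.0414).

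The same comparison in 8 mm holes, which the series treats as critical size, used 6 arrays at each of days 21, 10 and 14. There 729 genes passed (4.56%), 100 higher (0.626%) and 629 lower (3.94%), against the 135 of 4 mm defects. Of the 135 genes 101 had the same sign in 8 mm defects, 20 passed in both with the same sign and 6 passed with opposite signs. The change differed between sizes for 149 genes (0.933%), 135 with a higher change in 4 mm defects (0.845%) and 14 with a lower one (0.0876%). The median change of all genes was 0.07 in 4 mm and -0.23 in 8 mm defects, with a median difference of 0.25. These unequal counts run in the direction of that shift. With quantile normalization 13 of 15975 genes differed, 9 higher and 4 lower. What part of the counts the shift makes was not tested. Without the arrays of high brain score, of which 5 were among the 33 of both sizes, the change differed for 67 genes (0.419%). Of these 30 were higher (0.188%) and 37 lower (0.232%), with 1520 at an unadjusted p under 0.05 (9.51%). Fitted on the arrays of these groups alone, 0 genes passed, with 1071 at an unadjusted p under 0.05. Bst2 fell in 8 mm defects too, by 1.61 (limma adjusted p = 0.0452), as did Mki67 by 1.88, Melk by 2.82, Il1rl1 by 2.08, Vcan by 1.61 and Loxl2 by 1.38, and Prg2 rose by 1.33. Cxcl10 had a change of -3.98 in 4 mm and -1.11 in 8 mm defects, and Isg15 -2.74 and -0.48. The interferon list had medians of -1.82 in 4 mm and -0.48 in 8 mm defects, and for 0 of its 15 genes did the difference pass. For Ccl12 it did, with changes of -5.43 in 4 mm and -2.16 in 8 mm defects (difference -3.27, limma adjusted p = 0.0262). Among genes above the floor on the arrays of both sizes, the change was higher in 4 mm than in 8 mm defects for Rab14, a vesicle GTPase (-0.03 in 4 mm and -2.35 in 8 mm, limma adjusted p of the difference = 0.0186), and for Scd2, a fatty acid desaturase (0.77 in 4 mm and -1.50 in 8 mm, limma adjusted p = 0.0144). It was lower for Tmem88, a membrane inhibitor of Wnt signalling, with -1.40 in 4 mm and 0.48 in 8 mm defects (difference -1.88, limma adjusted p = 0.00233), and for Cd37, a leukocyte tetraspanin, with -0.88 in 4 mm and 1.10 in 8 mm defects (limma adjusted p = 0.0104). Tmem88 ranged from -1.47 to 0.15 on the 4 mm arrays of day 21, against -0.07 to 1.21 on those of days 10 and 14.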

How the data were processed

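RNA from the plugs was labelled with Cy3 and hybridised to 1-colour Agilent whole-genome rat arrays, per the labels' protocols. The authors deposited linear ratios. Of 41090 probes 87.8% had a median of 1 over all arrays, and no value was below 0.01. The sources used here do not give the background correction, any scaling of arrays or why the floor was set, so scale, centring and signal over background are unknown. Log values had been assumed in the design; log2 of the ratios was taken here with no pseudocount.

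Of the probes, 20932 had 1 gene symbol, 0 several and 20158 none. RefSeq accessions matched 17424 probes to GRCr8 gene names and changed 2316 symbols. For a gene with several probes (3880 of 15975) the probe of largest interquartile range stood for it. A cell-means model of 14 groups of day and size was fitted to the 93 arrays by lmFit and eBayes of limma 3.58.1 under R 4.3.3, with default settings. Days 10 and 14 were weighted by their arrays. Two-sided p-values were adjusted by Benjamini-Hochberg over 15975 genes in each comparison, with a threshold of 0.05. Errors after ± are standard errors of the model, and the number of arrays limits the precision. No pair of the 15 arrays held identical values, and the highest correlation was 0.381.

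The members and the 34 gene lists (595 entries, 544 measured) were chosen with earlier results of these data known, so no list is independent evidence of its direction. Named were the 15 largest rises and falls among genes passing and above the floor on all 15 arrays (13 rises existed), up to 6 passing members of a list, a fixed set of bone, cell type and proliferation genes, of which Acta2 was not measured, and the 5 largest size differences each way (3 existed for a lower change in 4 mm). Others are marked as chosen after their values were seen. Alternatives changed the scaling, floor, filters, probes, weights, prior, pooling, covariates and samples, used rat number as a block, and left out each array in turn. Leaving out the arrays of high brain score was added after the data were seen. On simulated data for this comparison over 15975 genes, the code recovered 5% of 2-fold, 36% of 4-fold and 52% of 8-fold changes. Of the calls made there, 0% to 4% were false. With the 15 arrays alone, 0.5%, 15% and 45% of these changes were recovered. The share of false calls in the measured data was not tested.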

Additional observations from a re-analysis of the deposited data

Results flagged for a closer look

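In each of the 3 day groups of 4 mm defects, the array farthest from the others was compared with Dixon's 95% limit for 75 named genes, 3 list scores and the array level. Of 237 such groups 38 held a far array. The limit lets through about 1 in 20 only for normal values. Some values here are tied at the floor and the genes were named from these data, so the 38 cannot be set against that share. Of the 38, 16 were in day 14 rat 17, which has a high brain score. That rat was low for Cxcl9 (-1.54), Isg15 (-0.31), Slamf9 (-2.25), Ms4a11 (-4.65), Cd68 (-2.92) and Cd79b (0.46), genes of interferon, macrophages and B cells. It was also low for Mki67 (-2.63), Melk (-2.24), Top2a (-3.79) and Ccnb1 (-2.11) of the cell cycle, for Col1a1 (-0.67), Cebpe (-6.64), Hinfp (-5.68) and Rab14 (-1.64), and high for Alas2 (1.68) and Scd2 (1.69). For Col1a1 the other day 14 rats lay at 1.00 to 1.12, and for Isg15 at 2.84 to 4.02. Of the other day 14 rats, rat 20 was low for Ttk (-5.84), rat 15 for Tst (-0.10) and Slc4a11 (-5.19), and rat 18 alone was above the floor for Sfrp4 (0.40).

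Day 10 rat 10 was low for the array level (-1.03), Cd68 (-1.58), Mmp13 (-1.82) and Rab14 (-0.80), and it alone of its day was above the floor for Sost (1.43). In day 10, Mmp13 lay at 3.03 to 3.13 in the other rats. Day 10 rat 11 was at the floor for Col2a1 (-6.64) and alone above it for Mpo (0.19), rat 12 alone was above the floor for Rad9a (-5.78), and rat 13 was low for Adipoq (-2.79).

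At day 21, rat 15 was low for Mki67 (-4.84), Postn (-1.86) and the array level (-0.39), and rat 10 for Ibsp (-2.92). Rat 11 was low for Tnfsf11 (-2.19), rat 12 for Rab14 (-0.92) and high for Slamf9 (-0.33), and rats 13 and 14 were at the floor for Cdh5 (-6.64) and Sfrp4 (-6.64).

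The change at day 21 against days 10 and 14 differed between 4 and 8 mm defects for 12 named genes by limma's test of the difference, adjusted over all genes. For the 9 named by rule the difference, 4 mm minus 8 mm, was 2.6 for Zfx, 2.55 for Agpat3, 2.53 for Hinfp, 2.33 for Rab14, 2.27 for Scd2, 2.03 for Kctd2, -1.73 for Ss18, -1.88 for Tmem88 and -1.98 for Cd37, with adjusted p-values of 0.00233 for Tmem88 to 0.0389 for Zfx. For Zfx the changes were 0.61 in 4 mm and -2.0 in 8 mm defects, and for Agpat3 1.99 in 4 mm and -0.57 in 8 mm defects. The other 3 were named after their values were seen: Ccl12 with -3.27 (limma adjusted p = 0.0262), Rad9a with 2.89 (limma adjusted p = 0.0209) and Ptprr with 8.75 (limma adjusted p = 0.0112), the earlier 4 mm values of Ptprr all being at the floor. Without the arrays of high brain score 3 of the 12 passed, Tmem88, Ccl12 and Rad9a.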

How the results depend on the processing

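The counts of genes passing depended on the processing. For day 21 against days 10 and 14 (135) they were 67 with quantile normalization, 694 with each array centred, 36 of the genes above the floor, 32 with less variable genes left out, 414 with array weights, 3 with the compared groups alone, 2 with days 10 and 14 as 1 group, 257 without the arrays of high brain score and 11 without them in the compared groups alone. Some of these settings also changed the genes or arrays entering the fit, and the cause of the different counts was not tested. Against day 14 (202) they were 52, 531, 60 with values under 0.25 raised, 38, 19, 83 with rat number as a replicate block and 3 with the compared groups alone. Against day 10 (319) they were 128, 1071, 504, 94, 114, 595 with array weights, 12 with the compared groups alone and 178 with brain and muscle scores as covariates. For the difference between sizes (149) they were 13, 235, 19, 1, 30, 74 with the block, 0 with the compared groups alone (1071 at an unadjusted p under 0.05), 0 with days as 1 group and 67 without the arrays of high brain score. Leaving out each array gave 89 (day 21 rat 15) to 309 (day 14 rat 17), 159 to 272 against day 14, 182 (day 10 rat 11) to 461 against day 10, and 91 (day 21 rat 10) to 204 for the difference, with 98 without day 21 rat 11. Centring and quantile normalization moved the median change of all genes from 0.07 to 0.15 and 0.01. None of the 38 named genes that passed turned direction. Of them, 24 lost the call with quantile normalization, 20 without the arrays of high brain score and 17 with brain and muscle scores as covariates. With the block 9 lost it, and with the compared groups alone 38. Changes that turned sign were of genes that did not pass: Bglap with quantile normalization (-0.37), array weights (-0.50) and the replicate block (-0.38), Rab14 with centring (0.0544) and the mean of all probes (0.11), Tnfsf11 with the raised floor (-0.16), Mpo with array weights (-0.36), and Alas2 (0.0216), Mmp13 (0.0612) and S100a9 (0.13) with covariates. Without the arrays of high brain score Alas2 (0.32), Col3a1 (0.21), Ibsp (0.42), Mmp13 (0.12), S100a9 (0.96) and Scd2 (-0.21) turned. On leaving out single arrays, the changes of Bglap ran from -0.61 to 0.71, Cxcl12 from -0.39 to 0.017, Ibsp from -1.36 to 0.19, Mpo from -0.67 to 1.18, Rab14 from -0.27 to 0.21, S100a9 from -0.59 to 0.10 and Tnfrsf11b from -0.52 to 0.24. Rat numbers did not pair the samples: 5 same-numbered pairs had correlations of -0.01 to 0.07.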

Other observations

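Eosinophil genes were looked at after the values of Prg2 and Epx were seen, so they carry no test of their own. Epx, the eosinophil peroxidase, ranged from 0.00 to 1.58 on all 6 day 21 arrays and was listed at the floor on 7 of the 9 earlier arrays, with -0.52 as the highest earlier value. Its adjusted p over all genes was 0.0779, above the threshold. Of other genes linked to eosinophils, the chemokine receptor Ccr3 had a change of 1.77, Siglec5 1.20, Prg3 1.62, the chemokines Ccl11 and Ccl24 0.52 and 1.24, Il5 0.67 the receptor chain Il5ra -1.03 and the lipoxygenase Alox15 -0.75, and none of these passed. Prg3, Il5 and Il5ra stood at the floor on 2 to 4 of the day 21 arrays and 5 to 7 of the earlier ones.

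None of the lymphocyte genes passed in the main comparison. Of the 16 T and natural killer cell genes 14 had a positive change at day 21, against 8472 of all 15975 genes. Without the arrays of high brain score the list's median was 1.39 and Cd3g, a chain of the T cell receptor complex, passed (1.70, limma adjusted p = 0.0334). There 0.319% of all genes were higher. In 8 mm defects 5 of the 16 rose, with a median of 1.24. Over all genes 0.626% rose in 8 mm defects, with a median of -0.23. Mzb1, a protein of plasma cells, had -3.65 and did not pass (limma adjusted p = 0.155).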
